A study of Mus musculus with 10 samples.

Results

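Imprinted genes whose parent-specific expression depends on DNA methylation were followed in mouse morulae with and without Jarid2. The set was 47 classical imprinted genes, chosen by name and matched to the gene symbol in the deposited table, which held 35976 genes. Of these 47 genes, 27 had at least 1 count in every one of the 10 libraries, and these 27 are described first. All 27 also passed the filter on low counts in both sets of libraries.

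Imprinted genes are transcribed mainly from the copy inherited from the mother or mainly from the copy inherited from the father. At the genes chosen here the difference is set by DNA methylation placed in the oocyte or in sperm at control regions, and it is kept after fertilization, when most other methylation of the genome is lost. Many of these genes act in growth, in the placenta or in the brain, and a long noncoding RNA made from the opposite parental copy often silences its neighbours. JARID2 is an accessory subunit of Polycomb repressive complex 2, which methylates lysine 27 of histone H3. A separate class of genes is imprinted in the early embryo by that histone mark and not by DNA methylation.

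The embryos came from the cross BDF1 x PWK, at the morula stage, before the blastocyst forms. Jarid2 knockout single embryos (KO, n = 3, replicates 1, 3 and 4) were compared with wild-type single embryos (WT, n = 3, replicates 1 to 3), each library being 1 female embryo. Jarid2 knockout pools (KO, n = 2) were compared with control pools (CTR, n = 2), each of about 20 embryos. KO replicate 2 of the single embryos was not analysed here. The sources used here do not give how Jarid2 was inactivated, the ages and genotypes of the parents, the sex of the pooled embryos, the exact genotype behind "control" or whether the pools came from separate litters. The p-values therefore measure the spread between these libraries, which in the pools may be technical. Polyadenylated RNA was read as whole-embryo cDNA, and the counts are not split by parental copy. A change of level therefore does not say which copy changed, and fewer cells of a kind and less RNA per cell cannot be told apart.

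The stretches upstream of 6 of the genes are shown, chosen by name among genes whose KO and WT single embryos did not overlap. Peg3, Blcap, Inpp5f and Copg2 were also apart in this way, and their stretches are not shown. The printed stretches are RefSeq sequences of build GRCm38.p6, read along each gene's own strand. Each runs from 250 bases before the start up to the first base of the gene itself or of any annotated exon. Other genes may span a stretch: that of Mcts2 lies in an H13 intron, and Kcnq1ot1 lies within the span of Kcnq1. Capitals mark the hexamer TGCCGC on either strand (GCGGCA when read on the other), which the imprint-protecting zinc finger protein ZFP57 binds where it is methylated.
Igf2r (chr17:12769707-12769956, minus strand): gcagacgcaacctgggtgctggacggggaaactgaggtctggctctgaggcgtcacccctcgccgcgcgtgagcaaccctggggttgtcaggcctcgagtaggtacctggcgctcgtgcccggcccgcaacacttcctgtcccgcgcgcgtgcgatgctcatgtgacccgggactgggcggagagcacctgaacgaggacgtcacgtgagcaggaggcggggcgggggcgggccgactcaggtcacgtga
Kcnq1ot1 (chr7:143296550-143296797, minus strand): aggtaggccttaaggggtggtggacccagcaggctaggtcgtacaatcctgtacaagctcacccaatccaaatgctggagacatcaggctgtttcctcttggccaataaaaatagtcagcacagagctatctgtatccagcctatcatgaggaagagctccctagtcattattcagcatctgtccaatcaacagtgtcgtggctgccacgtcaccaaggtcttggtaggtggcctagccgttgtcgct
H13 (chr2:152669211-152669421, plus strand): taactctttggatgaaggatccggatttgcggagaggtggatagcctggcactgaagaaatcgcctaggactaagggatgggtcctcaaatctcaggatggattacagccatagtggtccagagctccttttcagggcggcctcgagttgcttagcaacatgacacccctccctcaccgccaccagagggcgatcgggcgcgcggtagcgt
Mcts2 (chr2:152686898-152687034, plus strand): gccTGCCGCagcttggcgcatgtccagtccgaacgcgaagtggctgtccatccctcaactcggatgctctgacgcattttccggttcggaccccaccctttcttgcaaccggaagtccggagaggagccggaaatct
Zdbf2 (chr1:63200108-63200312, plus strand): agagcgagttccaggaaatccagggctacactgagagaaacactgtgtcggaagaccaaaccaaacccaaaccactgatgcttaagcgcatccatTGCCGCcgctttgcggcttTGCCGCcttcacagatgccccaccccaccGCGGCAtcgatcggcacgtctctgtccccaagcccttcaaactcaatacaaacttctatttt
Meg3 (chr12:109540746-109540995, plus strand): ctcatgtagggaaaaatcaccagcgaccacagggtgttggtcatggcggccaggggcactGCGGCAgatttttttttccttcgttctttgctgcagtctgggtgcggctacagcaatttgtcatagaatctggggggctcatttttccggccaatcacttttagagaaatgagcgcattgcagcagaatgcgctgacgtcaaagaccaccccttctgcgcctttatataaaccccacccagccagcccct

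The Zdbf2 stretch holds 3 hexamers and those of Mcts2 and Meg3 hold 1 each, while those of Igf2r, Kcnq1ot1 and H13 hold none. The Zdbf2 window was picked by its number of hexamers, and another Zdbf2 window holds 0 hexamers and 38 CpG. For Meg3 the first window along the chromosome was taken, and another Meg3 window holds 0 hexamers. The Igf2r stretch is rich in CpG, with 27 in 250 bases, whereas the Kcnq1ot1 stretch holds 5 in 248 bases. The Kcnq1ot1 stretch also holds 3 copies of CCAAT counted on both strands, a motif looked for after the sequences had been seen; 3 or more copies occur in a window of 3.88% of all genes. Over the full windows of 300 bases, TGCCGC was present in 14 of the 38 imprinted genes with a window (36.8%), against 3527 of all 27025 genes with a window (13.1%) and 2208 of the 10254 such genes tested in single embryos (21.5%); a gene with several windows counts once, by its highest number of hexamers. Windows on chromosome 18, where Impact lies, were left out for the imprinted genes but not for all genes. Among paternally expressed members TGCCGC was present in 9 of 20 (45%), and among the other members in 5 of 18 (27.8%). By the same count, the median imprinted gene held 17 CpG in its window, the median of all genes 8 and that of genes tested in single embryos 21. A match is a description of letters in these windows, and binding and methylation were not measured.

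Total counts were 18015186 to 18696312 in KO single embryos, 14830332 to 17534188 in WT single embryos, 41003216 to 49861963 in KO pools and 42906533 to 47458704 in CTR pools. Levels are given as CPM, each count divided by the total of its library and put on a shared scale, and reads carried no molecular identifiers, so limits drawn from counts cover counting error only. Jarid2 itself was at 156, 319 and 61.3 CPM in KO single embryos, against 580, 686 and 776 CPM in WT single embryos. It was at 181 and 158 CPM in KO pools, against 442 and 496 CPM in CTR pools. The log2 changes were -1.92 (SE 0.43, edgeR adjusted p = 0.0342) and -1.55 (SE 0.18, edgeR adjusted p = 0.0794), and the groups were apart in both sets. All 12 morula markers were present in every group, with a summed level of 2197 to 3501 CPM in KO single embryos, 2887 to 3053 CPM in WT single embryos, 1645 to 2136 CPM in KO pools and 1850 to 2279 CPM in CTR pools. The 10 cumulus and granulosa markers summed to 3.15 to 5.4 CPM in KO single embryos, 5.06 to 9.91 CPM in WT single embryos, 1.82 to 3.27 CPM in KO pools and 1.07 to 1.43 CPM in CTR pools, with Has2, Ptx3, Inhba, Fshr and Lhcgr at 0 in all groups. Most of this sum was Star, at 2.99 to 5.03 CPM in KO and 4.66 to 9.13 CPM in WT single embryos. The 6 blood markers summed to 19.4 to 43.2 CPM in KO single embryos, 7.42 to 51.9 CPM in WT single embryos, 20.3 to 22.7 CPM in KO pools and 21.4 to 31 CPM in CTR pools, with Ptprc and both beta-globin genes at 0. Nearly all of this sum was Cd68, at 18.7 to 42.4 CPM in KO and 7.42 to 51.1 CPM in WT single embryos. Cd68 was at 19.4 and 22 CPM in KO pools and at 20.7 and 30.6 CPM in CTR pools. Counts of 1 to 20 were odd in 54.9% to 57.9% of cases in single-embryo libraries and in 31.9% to 34.5% in pools; the cause was not tested. Whether a count of 1 is always 1 read in the pools is therefore not known, and limits drawn from 0 counts there assume that it is.

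The 27 genes detected throughout came from 17 of the 20 imprinted clusters and comprised 12 genes usually expressed from the paternal copy, 6 usually expressed from the maternal copy and 9 whose imprinting is limited to certain tissues or transcripts. Together, all 47 genes took 0.101%, 0.111% and 0.106% of counts in KO single embryos, against 0.147%, 0.129% and 0.131% in WT single embryos. They took 0.0951% and 0.11% in KO pools, against 0.0889% and 0.092% in CTR pools. KO single embryos were all below WT single embryos in this share, and KO pools were both above CTR pools. The share weighs each gene by its counts. Igf2r held 1054 to 1369 of the 18102 to 20721 counts of the set in KO single embryos. In WT single embryos it held 3044 to 4402 of 21762 to 22783. H13 held 1328 to 1441 counts in KO and 2530 to 3454 in WT single embryos. Mcts2 went the other way, with 1568 to 2514 in KO and 898 to 1381 in WT. The share without Igf2r and H13 was not computed.

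Per kilobase of exon, the highest mean level in KO pools was that of Mcts2 (110.0 CPM per kb, against 113 in CTR pools), an intronless gene related to a translation factor, followed by Gnas (22.4 against 17.2), the stimulatory G protein subunit. Impact, an inhibitor of the kinase GCN2, was at 19.1 CPM per kb in KO pools and 18.6 in CTR pools, and Igf2r at 9.82 and 7.71. The lowest of the 27 was the maternally expressed noncoding RNA Rian, at 0.0612 CPM per kb in KO pools and 0.0457 in CTR pools.

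Of the other 20 genes, 4 had 0 counts in all 10 libraries, namely H19, the maternally expressed noncoding RNA next to Igf2, and Snurf, Zim1 and Magel2. A count of 0 allows up to 0.16 to 0.167 CPM in KO single embryos, 0.171 to 0.202 CPM in WT single embryos, 0.0602 to 0.0732 CPM in KO pools and 0.0632 to 0.0699 CPM in CTR pools, taking 3 counts per library as the limit. Snrpn, which encodes a spliceosomal protein, had 1 count in KO single embryo 1 and 0 elsewhere. All annotated exon bases of Snurf lie within those of Snrpn. Of the 20, Phlda2, Plagl1 and Herc3 passed the filter on low counts in both sets, Peg13 and Slc22a18 in single embryos alone, and Peg10, Airn, Ndn and Rasgrf1 in pools alone. Ascl2, Dlk1, Rtl1, Kcnk9, Peg12 and Nap1l5 passed it in neither. Genes that passed in 1 set alone could have done so through the group where they were high, so they are left out of the counts over the 27.

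**Figure D1:**
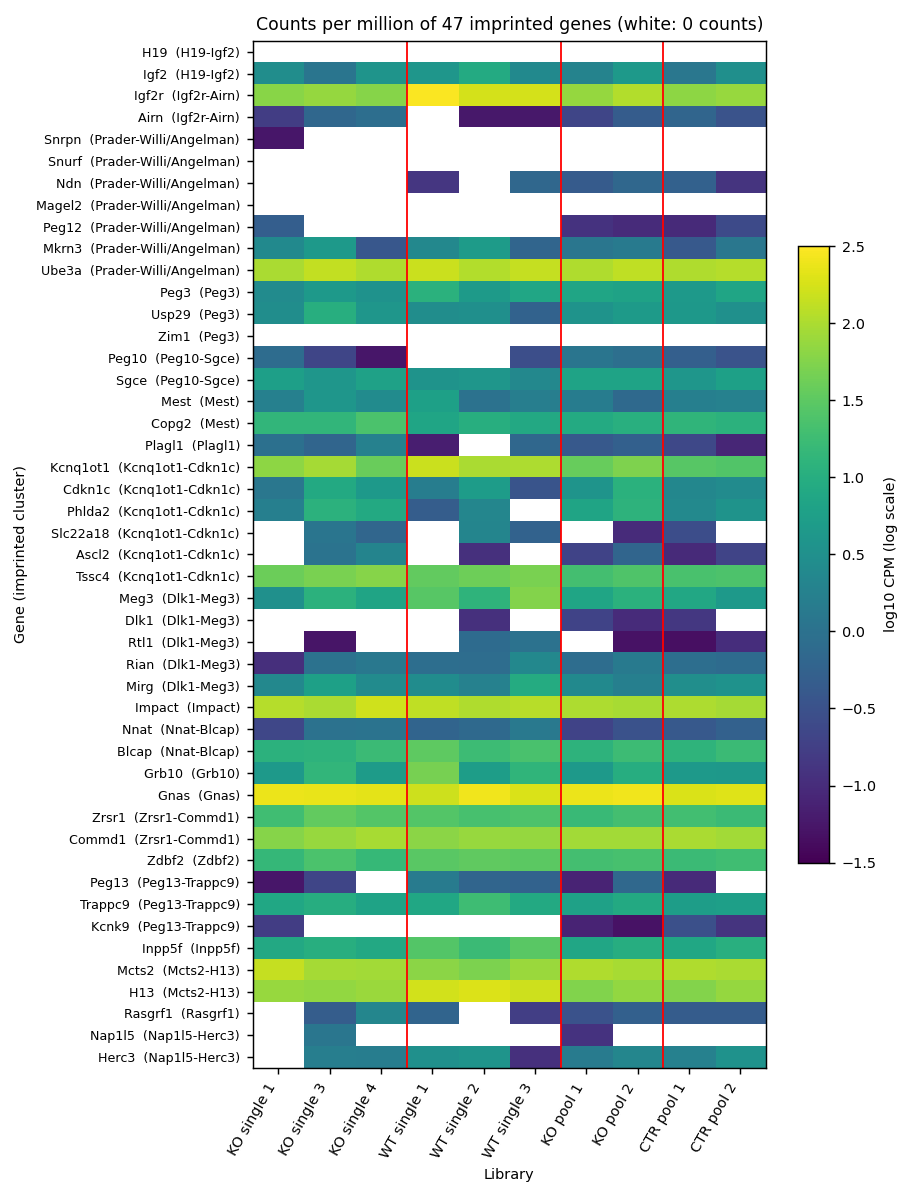
Level of all 47 imprinted genes in each library, as log10 CPM on a colour scale, with rows grouped by imprinted cluster and white for 0 counts; red lines part KO single, WT single, KO pool and CTR pool libraries. Colours compare libraries within a gene, since CPM is not divided by length; H19, Snurf, Zim1 and Magel2 are white throughout, and Igf2r and H13 are brightest in the WT single embryos.

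In single embryos, 2 of the 27 genes fell in the knockout and none rose by edgeR's quasi-likelihood test at an adjusted p under 0.05. They were Igf2r and H13. Of all genes tested in single embryos, 4.37% were called, 3.21% as lower and 1.16% as higher. With no adjustment, 2 of the 27 were higher and 6 lower at p under 0.05, where 22.6% of all genes tested lay. DESeq2 also called Inpp5f and Meg3 lower and Mcts2 and Phlda2, which is not among the 27, higher, and it called 14.2% of all genes tested. The 27 genes had a median log2 change of -0.22, with 11 above 0 and 16 below, beside a median of -0.03 over all 13830 genes tested. The 3 KO single embryos lay wholly below the 3 WT single embryos for 8 of the 27 genes (29.6%), against 15.3% of all genes tested, and wholly above for 2 (7.41%), against 12.6%. The groups were apart in either direction for 27.9% of all genes.

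In pools, edgeR called 0 of the 27 genes in either direction, and 0 of all 16259 genes tested (0%). At an unadjusted p under 0.05, Kcnq1ot1 and Cdkn1c were higher and none was lower, against 6.6% of all genes in either direction. DESeq2 called 0 of the 27 and 1 imprinted gene outside them, Phlda2, described with its cluster; over all genes it called 71. The median log2 change of the 27 in pools was 0.04, beside 0.01 over all genes, with 15 above 0 and 12 below. KO pools lay wholly above CTR pools for 7 of the 27 (25.9%), against 24.3% of all genes, and wholly below for 4 (14.8%), against 11.1%, with 35.4% of all genes apart in either direction.

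No gene of the 27 had groups apart in the same direction in both sets. Among all genes in both fits, 2.41% were higher and 1.59% lower in this way. Groups were apart in opposite directions for 3 of the 27. Copg2 was higher in KO single embryos and lower in KO pools, a pattern shown by 1.76% of genes. Kcnq1ot1 and Zdbf2 were lower in KO single embryos and higher in KO pools, a pattern shown by 2.52%. The test of the difference between the effects in both sets called 0 of the 27 by edgeR, and it called 0.0063% of all genes; with no adjustment, 2 of the 27 were higher and 6 lower at p under 0.05, and 14.6% of all genes passed that limit. The average effect over both sets called 0 of the 27 by edgeR, and it called 0.252% of all genes, 0.0378% as higher and 0.214% as lower; with no adjustment, 0 of the 27 were higher and 3 lower at p under 0.05, and 11.4% of all genes passed that limit. DESeq2 called 3 of the imprinted genes lower in the difference, namely Igf2r, H13 and Kcnq1ot1, and Phlda2 as higher and Igf2r and H13 as lower in the average; it called 3.43% of all genes in the difference and 3.05% in the average.

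**Figure D2:**
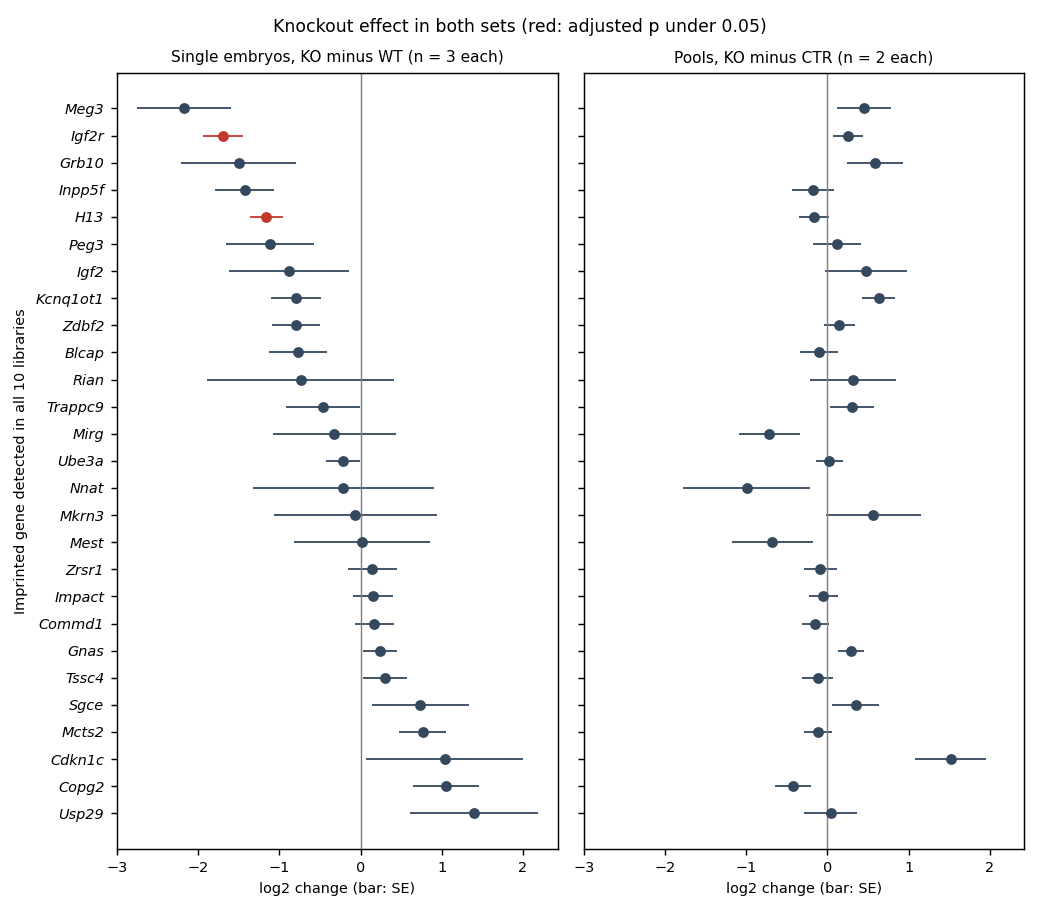
Log2 change of the 27 imprinted genes detected in all 10 libraries, KO minus WT single embryos on the left and KO minus CTR pools on the right, with bars for the SE and red for an adjusted p under 0.05. Igf2r (-1.70) and H13 (-1.16) are red in single embryos, and no gene is red in pools.

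Igf2r, the maternally expressed receptor for mannose 6-phosphate and IGF2 that carries IGF2 to the lysosome, fell in KO single embryos. The gene lies at chr17:12682406-12769706 on the minus strand. Its level was 62.4, 73.2 and 58.3 CPM in KO single embryos, against 297, 174 and 177 CPM in WT single embryos. The highest KO embryo stood below the lowest WT embryo. The means were 64.7 ± 7.69 CPM in KO and 215.9 ± 70.1 CPM in WT (SD, n = 3 each). The log2 change was -1.70 with an SE of 0.25 (edgeR adjusted p = 0.012). In pools, Igf2r was at 74.7 and 108 CPM in KO, against 66.9 and 76.7 CPM in CTR. The pooled groups overlapped, and the log2 change of 0.25 (SE 0.19) had an edgeR adjusted p = 0.864. The effect in single embryos minus that in pools was -1.92 on the log2 scale (SE 0.35, edgeR unadjusted p = 0.000115, adjusted p = 0.235). The WT single embryos stood above the other 7 libraries, while the KO single embryos, at 58.3 to 73.2 CPM, came near the 66.9 to 108 CPM of the pools. Single embryos and pools differed in embryos per library and in total counts, so this comparison across sets is a description only. The call in single embryos was lost without KO replicate 4 (edgeR adjusted p = 0.0662) and without WT replicate 3 (0.0607), while the log2 change ranged from -1.84 to -1.41 over all alternatives.

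Airn, the paternally expressed noncoding RNA that starts within Igf2r and runs against it, had few counts. It had 3, 13 and 16 counts in KO single embryos, against 0, 1 and 1 in WT single embryos. In pools it had 11 and 19 counts in KO, against 27 and 16 in CTR. All KO single embryos were above all WT single embryos, and the pools overlapped. The gene did not pass the filter in single embryos; without the filter its edgeR adjusted p was 0.424. The annotated exons of Airn and Igf2r share no base. Igf2, the paternally expressed growth factor bound by the receptor, had 1.12 to 3.76 CPM in KO single embryos and 2.53 to 8.73 CPM in WT single embryos, with overlap, and 1.97 and 4.58 CPM in KO pools against 1.21 and 3.16 CPM in CTR pools.

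H13, the signal peptide peptidase that cuts membrane-spanning remnants of signal peptides, fell in KO single embryos. Its level was 75.3, 71 and 79.7 CPM in KO single embryos, against 171, 197 and 157 CPM in WT single embryos. The groups were far apart, with little spread within each. The means were 75.3 ± 4.35 CPM in KO and 174.9 ± 20.3 CPM in WT (SD, n = 3 each). The log2 change was -1.16 with an SE of 0.20 (edgeR adjusted p = 0.0185). In pools H13 was at 54.8 and 71.5 CPM in KO, against 58.2 and 74.4 CPM in CTR, and the groups overlapped (log2 change -0.16, SE 0.19, edgeR adjusted p = 0.919). The difference between the effects was -0.98 (SE 0.28, edgeR adjusted p = 0.235), and their average -0.64 (SE 0.14, adjusted p = 0.0771). The call in single embryos was lost without KO replicate 1, KO replicate 4, WT replicate 1 or WT replicate 3 (edgeR adjusted p = 0.0553, 0.0823, 0.0702 and 0.0792).

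Mcts2, the paternally expressed gene inside an H13 intron, went in the other direction in single embryos without passing the test. It was at 139.6, 90.9 and 86.8 CPM in KO single embryos, against 63.7, 51.2 and 79.4 CPM in WT single embryos. The lowest KO embryo was just above the highest WT embryo. The log2 change was 0.76 (SE 0.29, edgeR adjusted p = 0.149). Pools were at 105 and 95.3 CPM in KO and at 105 and 99.6 CPM in CTR, a log2 change of -0.12. Mcts1, the X-linked gene related to Mcts2 whose reads could be shared with it, had log2 changes of 0.65 in single embryos (SE 0.23, edgeR adjusted p = 0.127) and -0.02 in pools. The annotated exons of H13 and Mcts2 share no base, but the sources used here do not state whether strand was used in counting.

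The other 4 host genes and the paternally expressed genes inside them gave no call. Blcap, a small membrane protein gene, was at 11.9, 12.3 and 16.6 CPM in KO single embryos, against 31.8, 17.7 and 22.5 CPM in WT single embryos. All KO embryos were below all WT embryos, and the log2 change was -0.77 (SE 0.36, edgeR adjusted p = 0.228). In pools Blcap was at 12.4 and 17.2 CPM in KO, against 12.7 and 17.1 CPM in CTR. Nnat inside it, which encodes a small endoplasmic reticulum protein, was at 0.222, 1.02 and 1.05 CPM in KO single embryos, against 0.607, 0.741 and 1.32 CPM in WT single embryos, with overlap. Nnat was at 0.201 and 0.317 CPM in KO pools, against 0.42 and 0.548 CPM in CTR pools. Both KO pools were below both CTR pools, but the p was large (0.233 unadjusted, edgeR adjusted p = 0.869).

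Commd1, a regulator of copper transport and NF-kB, was at 59.1, 75.6 and 96.2 CPM in KO single embryos, against 63.2, 75.2 and 73 CPM in WT single embryos. In pools it was at 87.7 and 89.7 CPM in KO, against 97.7 and 87 CPM in CTR. Zrsr1 inside it, related to a splicing factor subunit, was at 18.8, 34.2 and 26.6 CPM in KO single embryos, against 27.3, 21.7 and 24.4 CPM in WT single embryos, and at 16.2 and 19.8 CPM in KO pools against 19.3 and 16.6 CPM in CTR pools. Both genes overlapped between genotypes in both sets, with log2 changes of 0.17 and 0.15 in single embryos and -0.15 and -0.09 in pools. Their annotated exons share 412 bases, so part of the reads of either could belong to the other. Zrsr2, the related X-linked copy of Zrsr1, had log2 changes of -0.17 in single embryos and 0.33 in pools.

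Trappc9, a subunit of a vesicle-tethering complex, was at 7.77, 9.68 and 6.53 CPM in KO single embryos, against 7.62, 17.8 and 8.63 CPM in WT single embryos. It was at 6.08 and 8.44 CPM in KO pools, against 5.31 and 5.69 CPM in CTR pools. The single embryos overlapped (log2 change -0.46, SE 0.46), and the pools did not (0.30, SE 0.27). Peg13, the noncoding RNA inside it, had 1, 4 and 0 counts in KO single embryos, against 22, 11 and 10 in WT single embryos. In pools Peg13 had 4 and 29 counts in KO, against 4 and 0 in CTR. Its KO single embryos were all below its WT single embryos, though the change did not pass the test (edgeR adjusted p = 0.23).

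Herc3, a ubiquitin ligase gene, had 0, 30 and 28 counts in KO single embryos, against 47, 65 and 2 in WT single embryos, and 74 and 89 counts in KO pools against 78 and 166 in CTR pools. The genotypes overlapped in both sets, with log2 changes of -1.12 (SE 1.43) in single embryos and -0.63 (SE 0.42) in pools. Nap1l5 inside it had 0, 22 and 0 counts in KO single embryos and 6 and 0 in KO pools, against 0 in every WT single embryo and CTR pool. Nap1l5 reads in KO single embryos thus came from replicate 3 alone.

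The Kcnq1ot1 cluster on chromosome 7 holds a paternally expressed noncoding RNA and genes that it silences in cis on the paternal copy. The genes of this cluster and those after it that are given in every library were picked after their values were seen, and the others are given for completeness. Kcnq1ot1 was at 67.1, 91.4 and 37.9 CPM in KO single embryos, against 151, 97.4 and 101 CPM in WT single embryos. In pools the order was the opposite, at 37.7 and 53.9 CPM in KO against 29.2 and 26 CPM in CTR. Groups were apart in both sets. The log2 change was -0.80 (SE 0.31, edgeR adjusted p = 0.155) in single embryos and 0.63 (SE 0.20, edgeR adjusted p = 0.614) in pools, and the difference of -1.41 (SE 0.45) had an unadjusted p = 0.00808 and an adjusted p = 0.235 by edgeR.

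Phlda2, a maternally expressed gene that limits placental growth, had 30, 217 and 156 counts in KO single embryos, against 7, 38 and 0 in WT single embryos. These are 1.67, 11.6 and 8.63 CPM in KO, against 0.472, 2.17 and 0 CPM in WT, where 0 counts allow up to 0.173 CPM. The lowest KO embryo was below the highest WT embryo, so the groups overlapped; the log2 change was 3.07 (SE 1.20, edgeR adjusted p = 0.161). It was 4.96 without WT replicate 2 and 2.49 without WT replicate 3, called in neither case. In pools Phlda2 was at 6.9 and 12.1 CPM in KO, against 2.38 and 3.6 CPM in CTR, with no overlap. The means were 9.49 ± 3.66 CPM in KO and 2.99 ± 0.867 CPM in CTR (SD, n = 2 each), a log2 change of 1.56 (SE 0.33, edgeR unadjusted p = 0.000764, adjusted p = 0.336); DESeq2 gave an adjusted p of 0.00748.

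Cdkn1c, the maternally expressed inhibitor of cyclin-dependent kinases, was at 1.22, 8.4 and 4.54 CPM in KO single embryos, against 1.55, 5.08 and 0.345 CPM in WT single embryos. It was at 3.77 and 11.5 CPM in KO pools, against 2.24 and 2.65 CPM in CTR pools. The single embryos overlapped and the pools did not. Its change in pools was 1.52 on the log2 scale (SE 0.44, edgeR unadjusted p = 0.00598, adjusted p = 0.557). KO pool 2 was well above KO pool 1, and the change was 2.07 without KO pool 1 and 0.60 without KO pool 2, where the lone KO pool is assumed to vary like the CTR pools. Ascl2, a transcription factor of the trophoblast, had 0, 20 and 36 counts in KO single embryos against 0, 2 and 0 in WT single embryos, and 10 and 26 in KO pools against 4 and 10 in CTR pools. Tssc4, in the same cluster, was at 39.4 to 59.9 CPM in KO single embryos and 34.6 to 49.2 CPM in WT single embryos, with log2 changes of 0.30 (SE 0.27) in single embryos and -0.12 (SE 0.19) in pools.

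In the Dlk1-Meg3 cluster, the maternally expressed noncoding RNA Meg3 was at 3.27, 11.7 and 6.81 CPM in KO single embryos, against 28.9, 12.7 and 56.6 CPM in WT single embryos. The groups did not overlap, though KO replicate 3 came close to WT replicate 2. Its log2 change came to -2.18 (SE 0.58, edgeR adjusted p = 0.0589). It was -1.48 (0.214) without WT replicate 3, and Meg3 was called without KO replicate 3 (edgeR adjusted p = 0.0401) or WT replicate 2 (0.0296). Pools were at 6.98 and 11.3 CPM in KO, against 7.88 and 4.53 CPM in CTR, with overlap. The 2 WT embryos with the highest Meg3, replicates 1 and 3, also had the highest Pdgfra, a gene of fibroblasts and primitive endoderm, at 141 and 96.8 CPM; WT replicate 2 had 12.1 CPM, and KO single embryos had 8.66, 55.3 and 11.3 CPM. The 7 fibroblast markers, Pdgfra included, summed to 9.27 to 56.1 CPM in KO single embryos and 12.3 to 141.7 CPM in WT single embryos. In pools they summed to 13.96 to 14.4 CPM in KO and 13.6 to 15.7 CPM in CTR, with Dcn and Lum at 0. Most of this sum was Pdgfra, and other markers did not follow it. Col1a1 had 0, 12 and 9 counts in KO single embryos, against 0, 2 and 0 in WT single embryos. Thy1 had 11, 3 and 6 counts in KO single embryos, against 10, 2 and 3 in WT single embryos. The part of these markers in the result was not tested. Rian and Mirg, noncoding RNAs of the same strand, overlapped between genotypes in single embryos, and Mirg was lower in KO pools (2.47 and 1.66 CPM) than in CTR pools (2.96 and 3.5 CPM). The paternally expressed Dlk1 had at most 10 counts in any library.

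Inpp5f, a phosphoinositide phosphatase, was at 8.22, 10.3 and 8.08 CPM in KO single embryos, against 27, 16.6 and 29.8 CPM in WT single embryos. Its groups were apart, with a log2 change of -1.43 (SE 0.37) just short of the threshold at an edgeR adjusted p = 0.0533. KO pools were at 7.3 and 9.93 CPM and CTR pools at 7.74 and 10.6 CPM, with overlap. Zdbf2, a paternally expressed zinc finger gene, was at 14.4, 23.4 and 15.4 CPM in KO single embryos, against 29.8, 33.5 and 31.2 CPM in WT single embryos. In pools it was at 20.4 and 21.8 CPM in KO, against 17 and 18.8 CPM in CTR. The log2 change was -0.80 (SE 0.30, edgeR adjusted p = 0.144) in single embryos and 0.15 (SE 0.19) in pools.

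Copg2, a coat protein subunit gene of the Mest cluster, was at 13.8, 13.5 and 23.5 CPM in KO single embryos, against 7.01, 10.1 and 8.28 CPM in WT single embryos. In pools it was at 8.96 and 10.7 CPM in KO, against 13 and 11.7 CPM in CTR. The order of genotypes thus differed between sets, with log2 values of 1.05 (SE 0.40, edgeR adjusted p = 0.151) in single embryos and -0.43 (SE 0.22, adjusted p = 0.795) in pools. Its neighbour Mest, a paternally expressed hydrolase gene on the opposite strand, shares 912 exon bases with it, so reads there could be counted for either. Mest overlapped between genotypes in single embryos (1.72 to 4.07 CPM in KO, 1.03 to 5.87 CPM in WT) and was lower in KO pools, at 1.52 and 0.732 CPM, than in CTR pools, at 1.68 and 1.79 CPM.

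Peg3, a paternally expressed zinc finger gene, was at 2.72, 4.49 and 3.43 CPM in KO single embryos, against 11.3, 4.85 and 7.48 CPM in WT single embryos. The groups were narrowly apart in single embryos (log2 change -1.12, SE 0.55, edgeR adjusted p = 0.258), and the pools overlapped. Usp29, its neighbour, had a log2 change of 1.39 (SE 0.79) in single embryos with overlap. Grb10, an adaptor that restrains insulin signalling, was at 4.55 to 13.7 CPM in KO single embryos and 5.42 to 47.5 CPM in WT single embryos, where WT replicate 1 held the highest value (edgeR adjusted p = 0.239); without it the log2 change of Grb10 was -0.28. Gnas was at 214 to 240 CPM in KO single embryos and 160 to 256 CPM in WT single embryos, and at 237 and 263 CPM in KO pools against 185 and 199.6 CPM in CTR pools. The Gnas pools were apart, with a log2 change of 0.29 (SE 0.16), and this locus also makes several other transcripts that share exons. Sgce, a sarcoglycan gene, was higher in both KO pools (6.72 and 6.66 CPM) than in CTR pools (4.03 and 5.9 CPM) and overlapped in single embryos. The ubiquitin ligase gene Ube3a and Impact differed little, with log2 changes of -0.22 (SE 0.21) and 0.15 (SE 0.25) in single embryos and 0.02 (SE 0.17) and -0.05 (SE 0.18) in pools. Mkrn3, another paternally expressed gene, overlapped between genotypes in single embryos (0.387 to 4.49 CPM in KO, 0.633 to 4.96 CPM in WT) and in pools.

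The remaining members had few counts. Plagl1, a paternally expressed zinc finger gene of the growth network, had 17, 12 and 33 counts in KO single embryos, against 1, 0 and 12 in WT single embryos, and 21 and 22 in KO pools against 10 and 4 in CTR pools. The single embryos overlapped and the pools were apart, with log2 changes of 2.16 (SE 1.48) in single embryos and 1.49 (SE 0.90) in pools, neither called. Peg10, a paternally expressed gene derived from a retrotransposon and needed in the placenta, had 15, 4 and 1 counts in KO single embryos, against 0, 0 and 5 in WT single embryos. Peg10 had 56 and 38 counts in KO pools, against 22 and 16 in CTR pools, with no overlap (log2 change 1.18, SE 0.62, edgeR adjusted p = 0.795). Ndn had 0 counts in all KO single embryos and 2, 0 and 12 in WT single embryos, and 22 and 28 in KO pools against 24 and 6 in CTR pools. Slc22a18 and Rasgrf1 overlapped between genotypes in the set where each was tested, and Rtl1, Kcnk9 and Peg12 had at most 18, 13 and 12 counts in any library.

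**Figure D3:**
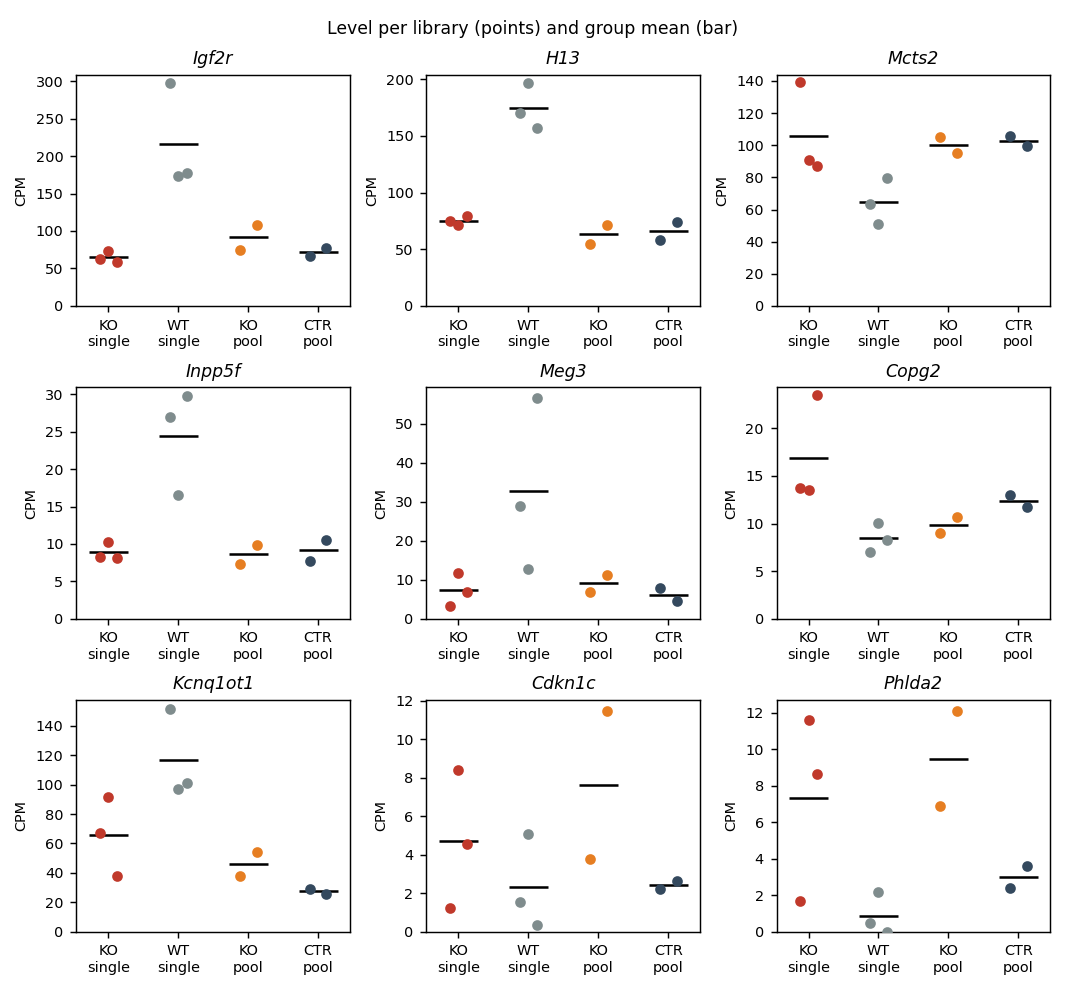
Level of 9 imprinted genes in CPM in each library (points) with the group mean (bar), for KO single (n = 3), WT single (n = 3), KO pool (n = 2) and CTR pool (n = 2) from left to right. The WT single embryos lie above all other libraries for Igf2r, H13, Inpp5f, Meg3 and Kcnq1ot1, and Phlda2 and Cdkn1c are higher in KO than in CTR pools. Single embryos and pools differ in embryos per library and in total counts.

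By usual parental copy, the 6 maternally expressed genes among the 27 had a median log2 change of -1.12 in single embryos and 0.38 in pools. The 12 paternally expressed genes had medians of -0.02 and 0.08, and the 9 genes of tissue-limited imprinting -0.22 and -0.12. The maternally expressed genes were Igf2r, Cdkn1c, Meg3, Rian, Mirg and Grb10, and 5 of the 6 were below 0 in single embryos and 5 of the 6 above 0 in pools. Meg3, Rian and Mirg are neighbours on chromosome 12 and share a source. No test over these lists was made.

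The values of WT single embryos against the other 7 libraries were looked at after the values had been seen. Single embryos and pools differed in embryos per library and in total counts, and the sex of the pooled embryos is not given. A level that differs between the sets therefore does not say which group of libraries changed. All 3 WT single embryos lay above every other library for 7 of the 27 genes (25.9%), namely Igf2r, Kcnq1ot1, Meg3, Blcap, Zdbf2, Inpp5f and H13, against 11.5% of all genes. They lay below every other library for Mcts2 alone, against 7.7% of all genes. All 3 KO single embryos lay above the other 7 libraries for Copg2 alone, against 3.42% of all genes, and below them for Peg3 alone, against 2%. Of the 8 genes with KO single embryos wholly below WT single embryos, 7 were thus those with WT single embryos above both kinds of pool as well. Of all genes tested in both sets, 1568 of 13677 had WT single embryos above the other 7 libraries. Of all genes tested in single embryos, 2121 of 13830 had KO wholly below WT. Every gene of the former kind is also of the latter by definition. This overlap therefore cannot show whether the pattern was particular to imprinted genes.

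An earlier description of these data reported lower levels in KO single embryos for genes that encode a hydrophobic segment, so the imprinted genes were set beside that class. A segment was taken as 19 residues with a mean Kyte-Doolittle hydropathy of at least 1.6 in the longest protein of the gene. Of all coding genes tested in single embryos, the 3812 with a segment had a median log2 change of -0.50 and 9.97% were called lower, while the 7862 without had a median of 0.14 and 0.674% were called lower. Among the 27 imprinted genes, 7 encode a segment, namely Igf2r, H13, Blcap, Nnat, Sgce, Ube3a and Igf2, with a median of -0.77 in single embryos and 0.02 in pools. The 16 coding genes without a segment had a median of 0.15 in single embryos and -0.01 in pools. Both genes called lower, Igf2r and H13, are in the class with a segment. Igf2r lay at -1.20 from the median of that class on the log2 scale, with 6.45% of the class at or below it, and H13 lay at -0.66 with 20.6%. Inpp5f, which has no segment, lay at -1.57 from its own class median, with 2.59% of that class at or below it. The part of the segment in the changes of Igf2r and H13 was not tested.

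**Figure D4:**
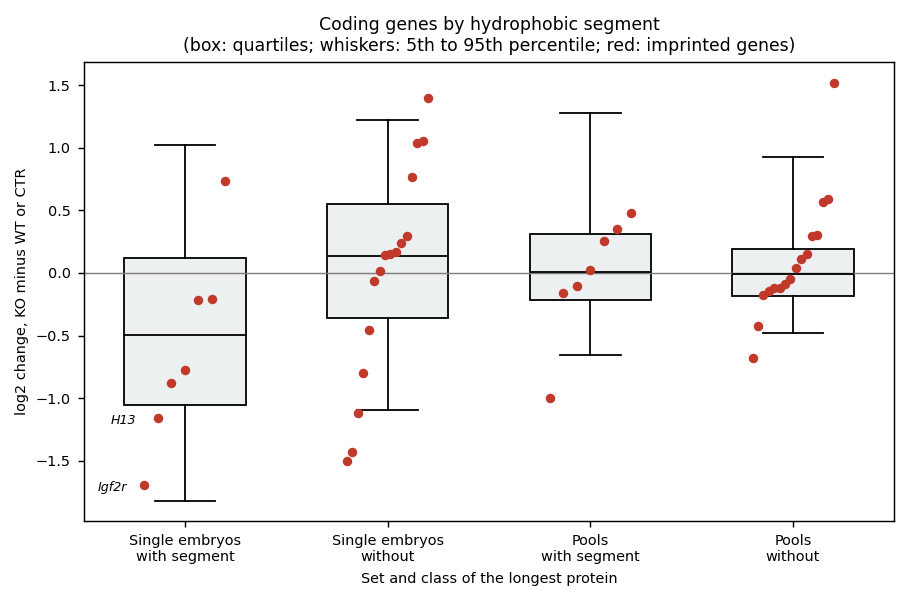
Log2 change of all tested coding genes with and without a hydrophobic segment, KO minus WT single embryos and KO minus CTR pools (box for quartiles, whiskers for the 5th and 95th percentiles), with the imprinted genes detected in all 10 libraries as red points. In single embryos the box of genes with a segment is centred at -0.50 and that of genes without at 0.14, with Igf2r and H13 in the lower part of the first; in pools both boxes are centred near 0.

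Proteins that place, protect or remove imprints were compared in the same fits. Of 21 such genes, 19 were tested in single embryos and 20 in pools, and edgeR called 0 in either set; with no adjustment, p was under 0.05 for 1 higher and 5 lower genes in single embryos, beside 22.6% of all genes, and for 1 lower gene in pools, beside 6.6%. DESeq2 called Dnmt3l higher and Tet1 and Tet2 lower in single embryos, beside 14.2% of all genes, and 0 in pools. Their median log2 change was -0.31 in single embryos and -0.01 in pools. Zfp57, whose protein binds the hexamer printed above, was lower without overlap in both sets, at 2.16, 11.3 and 13.4 CPM in KO single embryos against 34.6, 15.2 and 19.3 CPM in WT single embryos, and at 12 and 9.9 CPM in KO pools against 14.1 and 19.1 CPM in CTR pools. Its log2 change was -1.34 (SE 0.58, edgeR adjusted p = 0.201) in single embryos and -0.68 (SE 0.24, edgeR adjusted p = 0.672) in pools. Zfp57 was picked from the 21 genes although neither tool called it, and 1.59% of all genes in both fits were lower in this way.

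Of 6 genes imprinted by histone H3 lysine 27 methylation, edgeR called 1 lower in single embryos, beside 3.21% of all genes tested. With no adjustment, the edgeR p was under 0.05 for 3 lower genes, beside 22.6% of all genes in either direction. DESeq2 called Sfmbt2, Slc38a4 and Xist lower in single embryos, beside 14.2% of all genes in either direction. In pools edgeR and DESeq2 both called 0 of the 6, beside 0 and 71 of all genes. The edgeR p in pools was under 0.05 with no adjustment for 1 higher gene, Xist, beside 6.6% of all genes. Xist was at 262, 390 and 179 CPM in KO single embryos, against 558, 415 and 688 CPM in WT single embryos. In pools the order was the opposite, at 137 and 221 CPM in KO against 113 and 79.5 CPM in CTR. Its log2 change was -0.98 (SE 0.27, edgeR adjusted p = 0.0676) in single embryos and 0.79 (SE 0.24, edgeR adjusted p = 0.584) in pools. The sex of the pooled embryos is not given. Slc38a4, an amino acid transporter gene, was at 122, 119 and 72.5 CPM in KO single embryos, against 263, 311 and 357 CPM in WT single embryos, and its log2 change was -1.52 with an SE of 0.24 (edgeR adjusted p = 0.015). In pools it was at 102 and 127 CPM in KO, against 108 and 169 CPM in CTR, with overlap (log2 change -0.36, SE 0.21). Slc38a4 and Igf2r, of different imprinting classes, thus were both lower in KO than in WT single embryos. Neither was called in pools, where edgeR called 0 of all 16259 genes tested.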

How the data were processed

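Polyadenylated RNA of 10 morula libraries was amplified with SMART-Seq v4, made into libraries with Nextera XT and read as single-end 75-base reads on a NextSeq 500, per the labels' protocols. The authors deposited whole-number counts per gene without normalization. The submitters' processing notes name build mm10 and the tools RSEM 1.3.1, STAR 2.7.6a and fastp 0.21.0. The sources used here do not give the annotation, the use of strand or the handling of reads with several matches. The imprinted genes, gene lists, alternatives and the rule for naming genes were chosen with earlier results of these data known.

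From the counts, edgeR 4.0.16 in R 4.3.3 gave two-sided quasi-likelihood tests per set after filterByExpr and TMM scaling, with Benjamini-Hochberg adjustment over all genes tested at 0.05. The difference and the average of both effects came from 1 model of all 10 libraries that included the set. TMM factors were 0.925 to 1.08. Fold changes use a prior count of 0.125, SEs were derived from each change and its F statistic, and CPM uses library totals. Alternatives were DESeq2 1.42.0, limma 3.58.1 (voom), other scalings and filters, a robust fit, a replicate block and leaving out each library. Replicates differed from each other beyond sampling noise (49.4 to 88.4 chi-square units per gene).

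Of 35976 names, 33488 (93.08%) matched RefSeq for GRCm38.p6, as did all 47 members; 27 names had been turned into dates and stayed in the fits. Exon lengths and overlaps come from GENCODE M21, whose longest translation per gene also gave the hydrophobic segments, in place of the RefSeq proteins planned. Genes named in full were those past 0.05 and the 5 pairs of host and intronic genes, and further genes are marked where they were picked after their values were seen. On simulated counts the test recovered 7% of genes changed 2-fold and 40% of those changed 4-fold among 13130 genes of single embryos (4 of 51 calls false), and 47% and 74% among 15794 genes of pools (9 of 130 calls false).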

Additional observations from a re-analysis of the deposited data

Results flagged for a closer look

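For 3 imprinted genes every KO library lay on 1 side of its controls in single embryos and on the other side in pools. Among all genes in both fits, 1.76% showed the pattern of Copg2 and 2.52% that of Kcnq1ot1 and Zdbf2. The Zdbf2 change in pools was small, at 0.15 (SE 0.19). These genes were picked by this pattern in the same libraries, so the unadjusted p-values below are no independent test of it. The value given is the log2 effect in single embryos minus that in pools, tested as an interaction term by edgeR. Copg2 differed by 1.5 (SE 0.511, unadjusted p = 0.0117, edgeR adjusted p = 0.242). Kcnq1ot1 differed by -1.41 (SE 0.448, unadjusted p = 0.00808, edgeR adjusted p = 0.235). Zdbf2 differed by -0.923 (SE 0.38, unadjusted p = 0.0307, edgeR adjusted p = 0.298). None passed the adjustment over all genes. No group had 4 or more libraries, so no single library could be tested for standing apart from its group.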

How the results depend on the processing

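Changes in single embryos were recomputed under the alternatives for Igf2r, H13, Inpp5f, Meg3, Mcts2, Copg2, Kcnq1ot1, Zdbf2, Blcap, Phlda2, Cdkn1c, Grb10 and Peg3. Those in pools were recomputed for Phlda2, Cdkn1c, Kcnq1ot1, Igf2r, H13, Copg2, Mirg, Gnas and Grb10. Under fewer alternatives, the difference was recomputed for Igf2r, H13, Kcnq1ot1, Copg2 and Meg3, and the average for Igf2r, H13 and Phlda2. None of these recomputed changes turned its direction. Zdbf2 was not recomputed in pools or in the difference, nor were Meg3, Inpp5f, Mcts2, Blcap and Peg3 in pools. In single embryos, against 2 imprinted genes called lower and 0 higher, DESeq2 called 4 lower and 2 higher, no filter 6 lower and 2 higher, a minimum of 10 counts in every library 4 lower, and a fit of all 10 libraries 4 lower. Leaving out 1 library gave 0 to 4 lower (0 without KO replicate 4 or WT replicate 3, 1 without KO replicate 1 or WT replicate 1, 4 without WT replicate 2) and 0 higher. All genes called in single embryos numbered 605, against 1957 by DESeq2, 1715 without a filter, 1142 with at least 10 counts in every library and 1667 in a fit of all 10 libraries; they numbered 66 without KO replicate 1, 1316 without KO replicate 3, 41 without WT replicate 1, and 1 without KO replicate 4 or WT replicate 3.

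In pools, against 0 called higher, DESeq2 called 1, no filter 2 and the replicate block 1; leaving out 1 pool gave 0 to 3 (3 without KO replicate 1, 1 without CTR replicate 2). The lone pool left in a group is then assumed to vary like the other group, so these counts rest on the spread of a single pair of pools. All genes called in pools numbered 0, against 71 by DESeq2, 170 without a filter and 25 to 379 without 1 pool. In the difference, DESeq2 and no filter each called 3 lower against 0; in the average each called 1 higher and 2 lower against 0 and 0. With a hydropathy minimum of 1.8 in place of 1.6, the median log2 change of members with a segment was -0.88 in single embryos and 0.25 in pools. With at least 10 counts in every library, 23 of the 27 genes counted as detected.

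The labels do not say what a replicate number marks. Among single embryos, KO replicate 4 and WT replicate 2 have no partner of the same number. The effect in the replicate block there therefore rests on replicates 1 and 3. With the replicate block, H13 in single embryos had a log2 change of -1.15 (edgeR adjusted p = 0.161), Meg3 -2.68 (0.0192), and Phlda2 in pools 1.55 (0.0385); the block called 187 genes in single embryos and 39 in pools. Deviations of same-numbered libraries correlated at -0.014 and -0.085 in single embryos and 0.315 in pools. With 2 pools per group the deviations mirror each other, so pools of unlike number are fixed at -0.315. The causes of the changes in level were not tested. Low counts limit the precision for members near or under 1 CPM, such as Nnat, Rian and Peg13.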
